A study of Drosophila melanogaster with 8 samples.

Results

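The genes described here are long noncoding and antisense RNA genes expressed in the gut of adult female Drosophila melanogaster. They were chosen by symbol, as genes that the authors' deposited table names CR followed by a number, lncRNA or asRNA, together with roX1 and roX2. Of the 17559 genes counted, 941 matched by symbol, and the 97 whose mean over the 8 libraries was at least 2 CPM (counts per 1000000 counts of the library) are the members. Symbols below are current ones, and 90 of the 97 have an entry in the Ensembl annotation used here. By annotation 43 members are long noncoding RNAs, 35 are antisense RNAs and 2 are hairpin RNAs, so the name of the group holds for 80 of the 97. The symbol rule also took in 10 genes annotated as pseudogenes, 2 now annotated as protein-coding and 5 identifiers with no entry. roX1 and roX2 did not reach the level, and the long noncoding RNA gene Hsromega was not matched by symbol.

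The level that chose the members was the mean over both groups. For 10 members the mean was at least 2 CPM in guts with LamDm0 and below it in control guts, and for 8 members the reverse held, so these reached the level through 1 group only and counts over the members support nothing about noncoding genes as a class. The 3 members nearest the limit were lncRNA:CR44587 at 2.0 CPM, asRNA:CR45126 at 2.03 and CR17024 at 2.04. Just outside it were CR43361 at 1.99, asRNA:CR44029 at 1.96 and asRNA:CR44998 at 1.92 CPM.

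RNA was sequenced from whole guts of females, 4 libraries per group. Controls (genotype labelled wt) expressed GFP from a UAS transgene, also in enterocytes by the title of the series. In LamDm0 guts the UAS transgene encoded the B-type lamin LamDm0 and was driven in enterocytes, which absorb nutrients in the midgut. The driver line is not given in the sources used here. The groups carry different UAS transgenes, so other differences between the fly lines and the effect of LamDm0 cannot be told apart. Flies of both groups were raised at 18 °C, and females aged 2 to 4 days spent 2 days at 29 °C before RNA was taken.

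Long noncoding RNAs are transcribed by RNA polymerase II and often spliced and polyadenylated like messenger RNAs, but are not known to be translated. Antisense RNAs are read from the strand opposite another gene, and may share exonic sequence with it. Some long noncoding transcripts are the precursors from which microRNAs are cut, and hairpin RNAs are long fold-back transcripts cut by Dcr-2 into small interfering RNAs that AGO2 carries. In flies roX1 and roX2 are the RNA subunits of the male dosage compensation complex, and Hsromega is a nuclear stress-inducible RNA that gathers RNA-binding proteins into omega speckles. Lamins line the inner face of the nucleus and contact chromatin that is mostly silent. Selection of poly(A) RNA, used for these libraries, leaves out transcripts without a poly(A) tail.

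Total counts ranged from 19720070 to 36022790 per library. Lam, the expressed gene, stood at 16.2 to 20.2 TMM-scaled CPM (CPM with library sizes corrected by edgeR's TMM factors, the unit of all levels below unless stated) in control and 2702 to 4647 in LamDm0 libraries, so each library matched its label. Within groups, control replicates 1 and 2, LamDm0 replicates 3 and 4 and control replicates 3 and 4 were closest (chi-square per degree of freedom 28.4, 48.4 and 89.3, against 192 to 406 for the other pairs), and none agreed within sampling noise. All 6 enterocyte markers had counts, 2 passed the test as lower, and the summed level of the list was 8352 to 10464 CPM in controls and 8529 to 14131 in LamDm0 guts. The 5 fat body markers summed to 15.3 to 744 CPM in control and 801 to 1745 CPM in LamDm0 libraries, without overlap. All 5 had counts, 3 were tested (Yp1, Yp2 and Yp3, genes of yolk proteins) and 0 passed, with log2 fold changes of 1.29 ± 0.95, 1.52 ± 0.82 and 1.58 ± 0.73 (SE). The part of carried-over fat body RNA in the changes below was not tested. Of 7 testis and accessory gland markers, Mst84Da, Mst98Ca, Acp26Aa and Acp70A were at 0 in every library, and the sum of the list was at most 0.0476 CPM. In whole guts, fewer cells of a type and less RNA per cell cannot be told apart.

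Most members showed no difference between the groups that passed the test, while some of those that passed differed by large factors. In edgeR's quasi-likelihood test over all genes, with Benjamini-Hochberg adjustment and a threshold of 0.05, 7 members were higher in LamDm0 guts, 9 were lower and 81 did not pass. That is 16.5% of the members, where the share over all 8794 genes tested was 8.03% (4.76% higher and 3.26% lower) and over the 7630 of them with a mean of at least 2 CPM also 8.03% (4.64% higher and 3.39% lower). Of the 16 members called, 5 of the higher and 3 of the lower reached 2 CPM in only the group where they were higher. The median log2 fold change of the members was -0.07, against 0.01 over all genes tested. The groups did not overlap for 25 members, 25.8% of them, where the share over all genes tested was 17.3%, and 17.4% of those with a mean of at least 2 CPM. With library totals in place of TMM factors, 12 members were higher and 7 lower, and the median over all genes tested was then 0.2. Without LamDm0 replicates 3 and 4, 9 were higher and 4 lower, and with the libraries summed in pairs (replicates 1 with 2 and 3 with 4) 4 were higher and 2 lower. At an unadjusted p under 0.05 there were 35 of the 97 members. The shares were lower over all genes tested (23.9%) and over those with a mean of at least 2 CPM (24.2%).

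**Figure D1:**
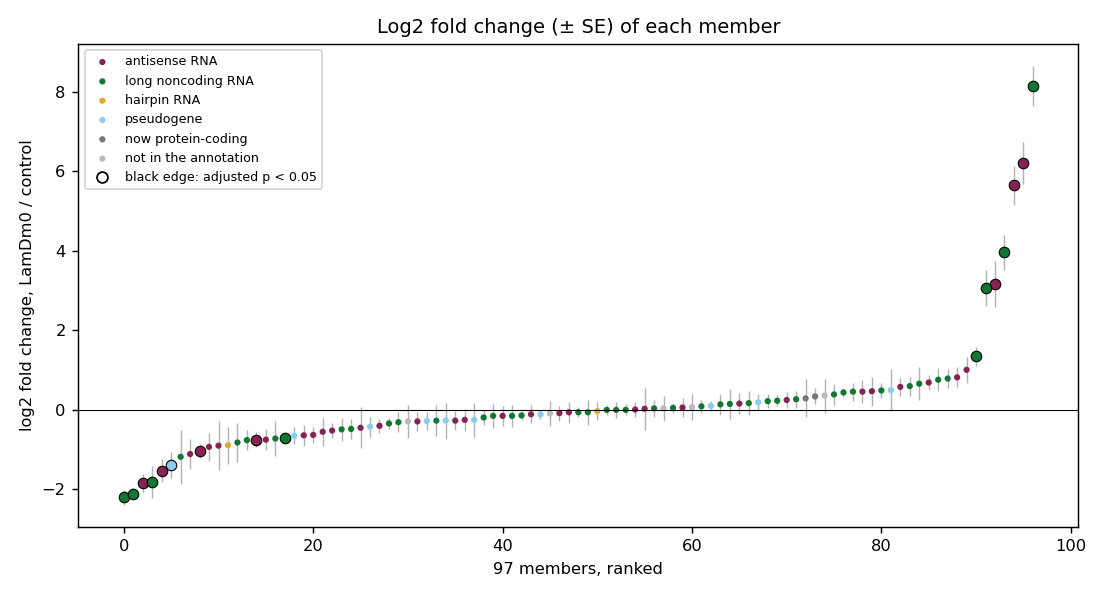
Log2 fold change (LamDm0 over control, y axis) of the 97 members, ranked from lowest to highest (x axis), with bars of 1 standard error; colours give the annotated class and a black edge marks an adjusted p under 0.05. Of the members, 80 lie between -1 and 1, with a steep rise at the right end that reaches 8.14 for lncRNA:CR40469.

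The largest increase belonged to lncRNA:CR40469 (FBgn0058469), a single-exon gene of 214 bases at the tip of chromosome X (122493 to 122706 in BDGP6.54, plus strand) that overlaps no exon of a coding gene. It held 0.144, 0.509, 0.542 and 0.669 CPM in control replicates 1 to 4 and 206, 160, 83.0 and 82.0 CPM in LamDm0 replicates 1 to 4. Every LamDm0 library was thus far above every control, and within the LamDm0 group replicates 1 and 2 were the higher ones. On the log2 scale the difference was 8.14 ± 0.51 (standard error, SE, as after every log2 fold change below; adjusted p = 9.5e-05), or 282-fold. The control libraries rested on 3, 10, 11 and 14 counts. Pooled over each group, the ratio of levels was 305, with an exact 95% interval of 222 to 431 that covers counting error only.

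lncRNA:CR44138 (FBgn0264987, 3R, 13376903 to 13377395), which also has a single exon, rose from a mean of 5.35 CPM in controls to 83.4 CPM with LamDm0. Its control libraries held 3.73, 4.89, 5.27 and 7.51 CPM and its LamDm0 libraries 148, 37.9, 58.8 and 88.9 CPM. The groups were well apart, although the LamDm0 libraries differed widely among themselves. The log2 fold change was 3.96 ± 0.44 (adjusted p = 0.0015). It lies within the bounds of CG9813 on the opposite strand, with no exonic overlap.

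Antisense RNAs gave 3 of the 7 increases, from 35 antisense members, where 4.76% of all genes tested were higher. All 3 reached 2 CPM in LamDm0 guts only, so their number supports nothing about antisense RNAs as a class. asRNA:CR45822 (FBgn0267472, 3L, 7355717 to 7356598) had 1, 0, 3 and 1 counts in the control libraries and 120, 147, 138 and 133 in the LamDm0 libraries, or 0.0609 ± 0.0622 and 4.89 ± 1.63 CPM (SD, n = 4 each). It was close to absent in controls and present in every LamDm0 library, highest in replicate 2 at 7.0 CPM and lowest in replicate 4 at 3.03 CPM. The log2 fold change was 6.21 ± 0.53 (adjusted p = 0.00049), and 7.03 without control replicate 3. The pooled ratio of 85.7 had an exact 95% interval of 36.5 to 265, again for counting error only.

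asRNA:CR45600 (FBgn0267160, 3R, 15136985 to 15140121) had 0, 0.356, 0.345 and 0.191 CPM in control libraries and 14.9, 9.33, 11.7 and 9.19 CPM in LamDm0 libraries. The pattern was again near absence in controls, from 0, 7, 7 and 4 counts, and a narrow range in LamDm0 guts. Before TMM scaling, 3 counts are 0.128 to 0.152 CPM per control library. Its log2 fold change was 5.64 ± 0.49 (adjusted p = 0.00049).

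asRNA:CR45140 (FBgn0266633, 2R, 12867609 to 12869783) had 0.431, 0.458, 0.789 and 0.43 CPM in control libraries and 7.20, 8.05, 1.76 and 2.12 CPM in LamDm0 libraries. The groups did not overlap, and LamDm0 replicates 1 and 2 stood well above replicates 3 and 4. Its log2 fold change was 3.16 ± 0.58 (adjusted p = 0.014). The call ended by limma-voom (adjusted p = 0.1), and with 1 library left out the adjusted p was at most 0.05. It also ended with the replicate number as a block (0.064) and with libraries summed in pairs (0.14). The remaining increases were microRNA hosts, described below.

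**Figure D2:**
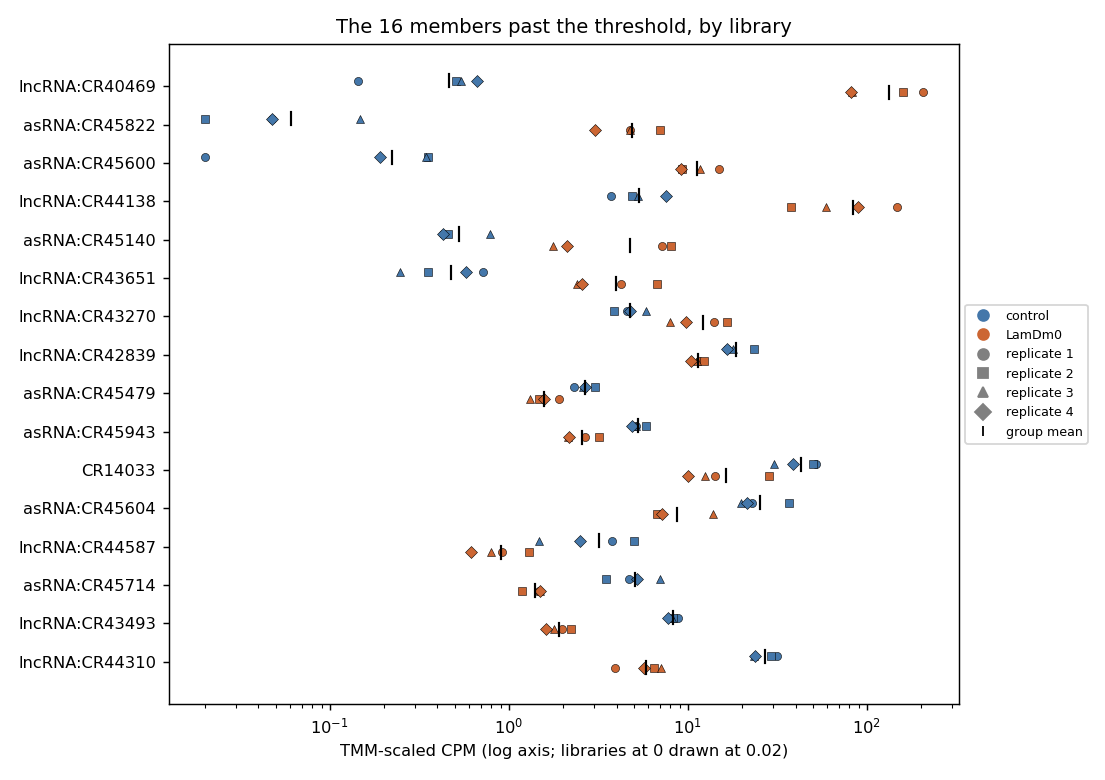
Level of the 16 members past the threshold in each of the 8 libraries, in TMM-scaled CPM on a log axis, with control libraries in blue, LamDm0 libraries in orange, a marker shape per replicate number and a black tick at each group mean; libraries at 0 are drawn at 0.02. The groups do not overlap for any of the 16, and 5 of the 7 higher members have control levels under 1 CPM.

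The decreases ran from 1.63-fold to 4.62-fold, and the increases from 2.53-fold to 282-fold. The largest was that of lncRNA:CR44310 (FBgn0265369, 2L, 3616296 to 3617619), whose control libraries held 31.4, 29.2, 23.3 and 23.7 CPM and whose LamDm0 libraries held 3.94, 6.48, 7.13 and 5.73 CPM. No LamDm0 library came near the lowest control. The log2 fold change was -2.21 ± 0.19 (adjusted p = 0.00049). Its nearest tested coding gene was Ugt36A1, 1478 bases away, at 0.50 ± 0.24 (adjusted p = 0.25). Ugt36A1 was named with its values in view.

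lncRNA:CR43493 (FBgn0263504, X, 22487854 to 22490872) was close to even among controls, with groups well apart, at 8.86, 8.30, 8.13 and 7.79 CPM in controls and 1.99, 2.24, 1.80 and 1.62 CPM in LamDm0 libraries. Its log2 fold change was -2.12 ± 0.14 (adjusted p = 0.00015). lncRNA:CR44587 (FBgn0265798, 2L, 12024056 to 12025202) had 3.78, 4.99, 1.48 and 2.49 CPM in controls and 0.914, 1.29, 0.796 and 0.614 CPM in LamDm0 libraries. Its lowest control, replicate 3, was close to its highest LamDm0 library. The log2 fold change was -1.83 ± 0.40 (adjusted p = 0.028), a call that ended without control replicate 1 or 2 or without LamDm0 replicate 1, 3 or 4 (adjusted p up to 0.08).

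lncRNA:CR42839 (FBgn0262028, 3R, 16004321 to 16008073) lies between srp and GATAe, genes of GATA transcription factors of which GATAe acts in the midgut endoderm. It fell 1.63-fold, from 16.6, 23.3, 18.0 and 16.5 CPM in control to 11.6, 12.3, 11.3 and 10.4 CPM in LamDm0 libraries (log2 fold change -0.71 ± 0.13, adjusted p = 0.015). The call ended without LamDm0 replicates 3 and 4 (adjusted p = 0.096) and with library totals in place of TMM factors. Its neighbours did not pass, with srp at 0.62 ± 0.36 (adjusted p = 0.35) and GATAe at -0.09 ± 0.19 (adjusted p = 0.81), both named after their values were seen.

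Of the 35 antisense RNAs, 4 were lower, where 3.26% of all genes tested were lower. Among these, asRNA:CR45714 and asRNA:CR45479 reached 2 CPM in control guts only, so this count too supports nothing about the class. asRNA:CR45714 (FBgn0267278, X, 18480072 to 18481132) had 4.69, 3.51, 7.0 and 5.21 CPM in controls and 1.47, 1.19, 1.49 and 1.5 CPM in LamDm0 libraries (log2 fold change -1.85 ± 0.23, adjusted p = 0.003). asRNA:CR45604 (FBgn0267164, X, 11089231 to 11095143) had 22.8, 36.8, 19.9 and 21.5 CPM in controls and 7.12, 6.76, 13.8 and 7.15 CPM in LamDm0 libraries (-1.54 ± 0.29, adjusted p = 0.015). In both the groups stayed apart, and in the second LamDm0 replicate 3 was above the other LamDm0 libraries. The call of asRNA:CR45604 ended without LamDm0 replicates 1 and 2 (adjusted p = 0.076). It also ended with the replicate number as a block (0.062) and with libraries summed in pairs (0.085).

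asRNA:CR45943 (FBgn0267605, 3L, 20838313 to 20838700) fell 2.07-fold, from 5.26 ± 0.419 to 2.55 ± 0.490 CPM (SD, n = 4 each; log2 fold change -1.05 ± 0.17, adjusted p = 0.0081; 0.052 without LamDm0 replicates 3 and 4). asRNA:CR45479 (FBgn0267035, X, 2173480 to 2175855) fell 1.70-fold, from 2.66 ± 0.311 to 1.57 ± 0.251 CPM, with an adjusted p of 0.046. Its call ended without any 1 library except LamDm0 replicate 1 (adjusted p up to 0.12), and with library totals in place of TMM factors (0.14). The ninth decrease was CR14033 (FBgn0046776, 2L, 5242699 to 5244239), annotated as a pseudogene, which had 52.3, 49.8, 30.5 and 38.8 CPM in controls and 14.2, 28.6, 12.5 and 10 CPM in LamDm0 libraries. Its highest LamDm0 library was just below its lowest control. Its log2 fold change was -1.40 ± 0.33 (adjusted p = 0.036), and the call ended without control replicate 1, 2 or 4 or LamDm0 replicate 1, 3 or 4 (adjusted p up to 0.096). Of the 9 lower members, 4 lie on chromosome X, which holds 18 of the 90 annotated members, and 3 on 2L, which holds 17.

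The members include 6 transcripts that hold microRNA genes, and 2 of them rose. Over all genes tested 4.76% were higher, and 6 transcripts are too few to compare with that share. lncRNA:CR43651 (FBgn0263660, 2R, 9552844 to 9553940) spans mir-14, a microRNA known in flies for limiting cell death and for its part in fat metabolism. It had 0.718, 0.356, 0.246 and 0.574 CPM in controls and 4.21, 6.76, 2.42 and 2.57 CPM in LamDm0 libraries, with no overlap. Its log2 fold change was 3.05 ± 0.45 (adjusted p = 0.0057, and 0.074 with libraries summed in pairs). It reached 2 CPM in LamDm0 guts only, with means before TMM scaling of 0.451 CPM in controls and 4.07 CPM with LamDm0. lncRNA:CR43270 (FBgn0262951, 3L, 22665300 to 22669528) spans mir-958 and rose 2.53-fold. Its control libraries held 4.6, 3.87, 5.82 and 4.73 CPM and its LamDm0 libraries 14.0, 16.6, 7.92 and 9.74 CPM (1.34 ± 0.24, adjusted p = 0.014). The call ended with the replicate number as a block (adjusted p = 0.078) and with libraries summed in pairs (0.15). In both transcripts all LamDm0 libraries were above all controls, and LamDm0 replicates 1 and 2 were above replicates 3 and 4.

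The other 4 hosts did not pass, and were named with their values in view. lncRNA:CR43650, which spans mir-8, the fly member of the miR-200 family, was at 0.65 ± 0.42 on the log2 scale (adjusted p = 0.4). LamDm0 replicates 1 and 2, at 10.6 and 9.09 CPM, were above all controls (2.35 to 5.67 CPM), while replicates 3 and 4, at 3.56 and 3.6 CPM, lay among them. lncRNA:CR43459, the host of mir-277 and mir-34, had 0.14 ± 0.38 (adjusted p = 0.86), and lncRNA:CR43334, the bantam precursor by its RefSeq synonym, had -0.28 ± 0.39 (adjusted p = 0.71). bantam is a growth-promoting microRNA that blocks apoptosis. lncRNA:CR43314, which spans mir-bft, had 7.56 to 21.8 CPM in controls and 5.64 to 16.1 CPM in LamDm0 libraries (-0.73 ± 0.43, adjusted p = 0.34). These values are of the long host transcripts, and mature microRNAs were not measured. Across the 6 hosts the median log2 fold change was 0.40.

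**Figure D3:**
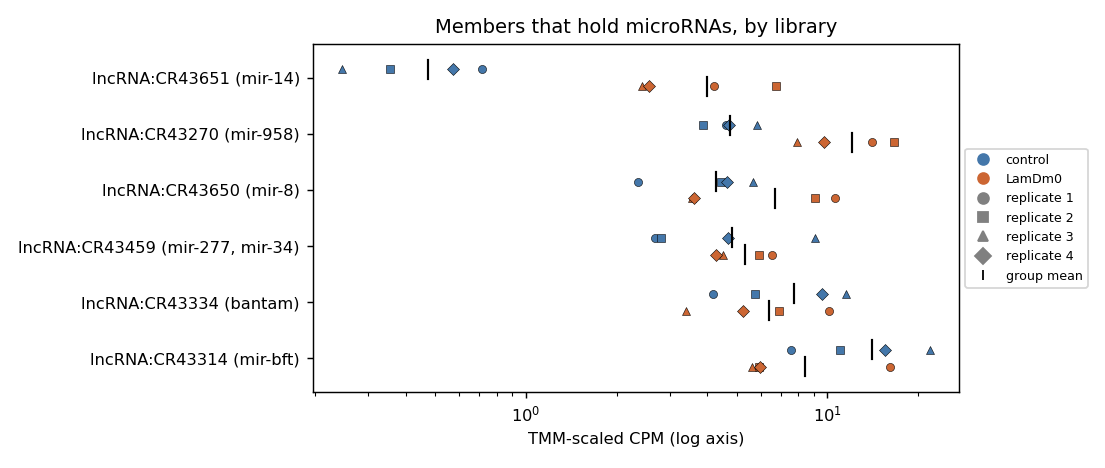
Level of the 6 members that hold microRNA genes in each library, in TMM-scaled CPM on a log axis, with control libraries in blue, LamDm0 libraries in orange, a marker shape per replicate number and a black tick at each group mean. The groups are separate for the hosts of mir-14 and mir-958 and overlap for the other 4.

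Exons of 41 members overlap an exon of a coding gene on the opposite strand, and there the counts of both are uncertain because the kit keeps the strand but the strand setting of the counting is not given. Of these, 36 members formed 43 pairs with a tested coding gene. In 11 pairs, 10 from 7 antisense RNAs and 1 from the pseudogene CR14033, the member had passed. In 2 of those the coding gene had passed as well. In the 32 pairs whose member had not passed, 1 coding gene had. The share called over all genes tested was 8.03%, and these counts, partly of pairs that share a member, are too few to set against it. The sign of the log2 fold change was the same in 26 of the 43 pairs.

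At asRNA:CR45822 the partner is CTCF, the gene of an insulator protein, whose exons cover 79.4% of the antisense exons. CTCF stood at 16.7 ± 3.22 CPM (SD, n = 4) in control guts and at 15.9 ± 0.597 CPM (SD, n = 4) with LamDm0 (log2 fold change -0.07 ± 0.13, adjusted p = 0.8). The antisense RNA rose while the level of the coding gene showed no detectable difference. At asRNA:CR45714 the partner Hayan, a serine protease gene of the melanization response, covers 82.2% of the antisense exon and had 0.588 ± 0.182 and 0.613 ± 0.160 CPM (0.04 ± 0.35, adjusted p = 0.96).

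At asRNA:CR45600 the overlapping genes moved with the member. On the opposite strand CG3984, which covers 59.4% of the antisense exons, rose from 0.206 ± 0.180 to 2.20 ± 0.836 CPM (log2 fold change 3.37 ± 0.64, adjusted p = 0.016). Its call ended without control replicate 2 (adjusted p = 0.053) and without LamDm0 replicates 1 and 2 (0.064). It also ended with the replicate number as a block (0.051). The log2 fold change of CG3984 was 4.01 without control replicate 1. On the same strand CG6912, which shares 20 exonic bases with the member, rose from 0.205 ± 0.191 to 8.60 ± 2.01 CPM (5.34 ± 0.47, adjusted p = 0.00049; 6.17 without control replicate 4). The control libraries held 0 to 9 counts of CG3984 and 1 to 10 of CG6912. CG3987, with little overlap, had 380 ± 99.2 and 592 ± 26.7 CPM and did not pass (0.64 ± 0.18, adjusted p = 0.064; 0.012 without control replicate 4). Beyond them at 1722 bases, Glys, the glycogen synthase gene, rose from 32.9 ± 3.00 to 52.4 ± 9.64 CPM (0.67 ± 0.14, adjusted p = 0.026); it too was named with its values in view. Thus 3 coding genes that overlap or flank the antisense RNA were higher, and with so few control counts the sizes of the 2 overlapping ones are imprecise.

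At asRNA:CR45604 the directions were opposed. The antisense RNA fell, while CG2076, which covers 25.2% of its exon, rose from 101 ± 4.63 to 237 ± 12.7 CPM (log2 fold change 1.23 ± 0.10, adjusted p = 0.0003; 0.099 with libraries summed in pairs). The other partners of this member, CG2061 and Vago, a gene known to be induced by viral infection, did not pass (-0.18 ± 0.10 and -0.48 ± 0.92, adjusted p = 0.3 and 0.8). The partners of the remaining called members did not pass either. CG17574 beside asRNA:CR45140 had 0.31 ± 0.13 (adjusted p = 0.2), and CG13255, whose exons cover asRNA:CR45943 wholly, had -0.29 ± 0.22 (adjusted p = 0.47; -0.76 and 0.022 without LamDm0 replicates 1 and 2). Cyp4d14, a cytochrome P450 gene opposite asRNA:CR45479, had -0.28 ± 0.24 (adjusted p = 0.53), and tkv, a receptor gene of the Dpp pathway opposite CR14033, had 0.05 ± 0.13 (adjusted p = 0.86).

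**Figure D4:**
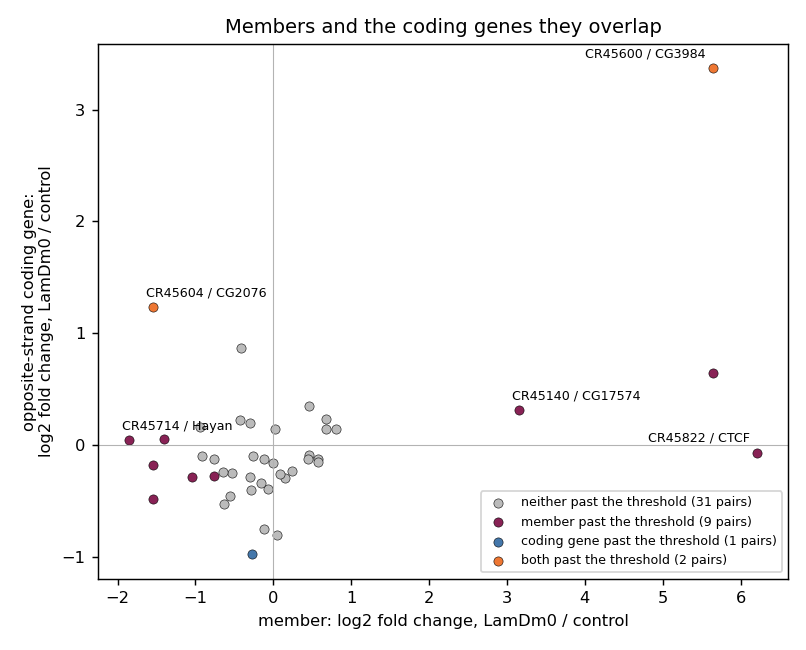
Log2 fold change (LamDm0 over control) of each member (x axis) against that of the tested coding gene whose exons it overlaps on the opposite strand (y axis), 43 pairs, coloured by which of the pair passed the threshold. The 2 orange points, asRNA:CR45600 with CG3984 and asRNA:CR45604 with CG2076, are the pairs in which both passed, in the same and in opposite directions.

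Coding genes next to the members passed the test about as often as all genes tested, in 10 of 137 cases (7.3%, against 8.03%). Among tested coding genes that flank a higher member within 10000 bases without overlapping it, 1 of 11 was higher (Glys) and 1 lower (CG17636, 1664 bases from lncRNA:CR40469, at -1.52 ± 0.38, adjusted p = 0.045). Beside lower members 1 of 15 was higher (CG3288 at 1.97 ± 0.39, adjusted p = 0.019) and 0 were lower. Beside members that did not pass, 2 of 111 were higher and 5 lower. 3 of these 5 are digestive enzyme genes. asRNA:CR45272 lies between the amylase genes Amy-p and Amy-d, 792 and 128 bases away, whose log2 fold changes were -1.21 ± 0.29 and -1.52 ± 0.29 (adjusted p = 0.039 and 0.016). The antisense RNA had 6.75, 7.64, 3.50 and 4.02 CPM in controls and 4.21, 2.05, 1.52 and 2.28 CPM in LamDm0 libraries, so the groups overlapped in LamDm0 replicate 1 (-1.12 ± 0.37, adjusted p = 0.1). lncRNA:CR43952, 315 bases from the protease gene yip7 (-1.30 ± 0.29, adjusted p = 0.031), had -0.32 ± 0.25 (adjusted p = 0.49). The neighbours in this paragraph were named after their values were seen.

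Of the 6 members of highest mean CPM over both groups, lncRNA:CR40469 and lncRNA:CR44138 rose, as described above, and the other 4 did not pass. Those that rose rank so high only through their LamDm0 libraries. Before TMM scaling their means were 0.431 and 4.99 CPM in controls and 135 and 88.4 CPM with LamDm0. Their rise thus says nothing about abundant members. lncRNA:CR42862 (FBgn0262109, 3L, 224106 to 230964) had the highest mean CPM of the members, with 282, 380, 613 and 605 CPM in controls and 749, 564, 420 and 375 CPM in LamDm0 libraries (log2 fold change 0.16 ± 0.31, adjusted p = 0.79). hpRNA:CR18854, a hairpin RNA, had 196, 176, 332 and 259 CPM in controls and 298, 227, 201 and 208 CPM in LamDm0 libraries (-0.04 ± 0.22, adjusted p = 0.93). In both the libraries of a group differed by more than the groups did. The 3 libraries with the largest shares of mitochondrially encoded counts, control replicates 3 and 4 (15.2% and 13.78%) and LamDm0 replicate 1 (21.85%), held the 3 highest values of lncRNA:CR42862 and of hpRNA:CR18854, and the part of that share in these values was not tested.

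Per kilobase of exon, lncRNA:CR42862 stood at 85.7 CPM in controls and 96.1 with LamDm0. On the same scale lncRNA:CR44138 went from 10.9 to 169 and lncRNA:CR40469 from 2.18 to 621. The short genes that rose thus lay below the long abundant one in control guts and above it in LamDm0 guts. CG43051, now annotated as protein-coding, stood at 53.0 and 66.4 CPM per kilobase, and its log2 fold change of 0.33 ± 0.20 missed the threshold (adjusted p = 0.37). CR40640, which has no annotation entry, had 108 to 203 CPM in controls and 87.3 to 238 CPM in LamDm0 libraries (0.06 ± 0.33, adjusted p = 0.94). The other hairpin RNA, hpRNA:CR32207, named for its class, had 8.76, 8.76, 13.3 and 11.9 CPM in controls and 10.7, 7.52, 2.49 and 2.37 CPM in LamDm0 libraries. LamDm0 replicates 2, 3 and 4 were below all controls and replicate 1 lay among them, and it did not pass (-0.90 ± 0.47, adjusted p = 0.29).

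**Figure D5:**
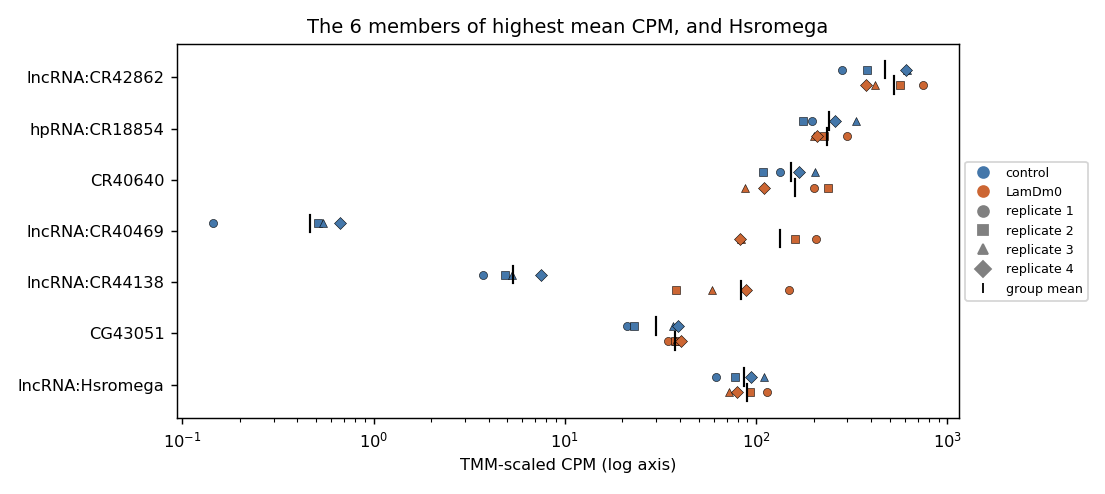
Level of the 6 members of highest mean CPM, and of Hsromega, in each library, in TMM-scaled CPM on a log axis, with control libraries in blue, LamDm0 libraries in orange, a marker shape per replicate number and a black tick at each group mean. The groups are separate for lncRNA:CR40469 and lncRNA:CR44138, while lncRNA:CR42862, hpRNA:CR18854, CR40640, CG43051 and Hsromega overlap.

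The best known noncoding genes of the fly lay outside the members. Hsromega had 61.9, 77.6, 110 and 94.0 CPM in controls and 114, 92.8, 72.1 and 79.4 CPM in LamDm0 libraries, with a log2 fold change of 0.06 ± 0.20 (adjusted p = 0.89). Its groups overlapped throughout. For roX2 every library had 0 counts, and the limit set by 3 counts is 0.083 to 0.152 CPM per library before TMM scaling. roX1 had 0.239, 0.305, 0.246 and 0.383 CPM in control libraries, from 5 to 8 counts each, and 0.239, 0.143, 0.0346 and 0.0228 CPM in LamDm0 libraries, from 1 to 6 counts each. The groups met at 0.239 CPM, and roX1 was too low to be tested.

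The remaining classes are small, and their counts are too few to compare with the 8.03% called over all genes tested. Of 10 pseudogenes, 1 was lower and 9 did not pass, with a median log2 fold change of -0.27. The 5 members with no annotation entry lay between -0.30 and 0.35 and did not pass, nor did CG43051 and CG45045, now annotated as protein-coding. With the values in view, chromosome 4 was looked at, and all 3 members there are antisense RNAs with positive values that did not pass: asRNA:CR44030 at 1.00 ± 0.33 (adjusted p = 0.11), asRNA:CR45126 at 0.81 ± 0.25 (adjusted p = 0.091) and asRNA:CR44031 at 0.45 ± 0.29 (adjusted p = 0.38). Of these only asRNA:CR44031 overlapped between groups. Of the 844 genes of the same symbols under 2 CPM, 132 could be tested. Of these 11 were higher (8.33%, against 4.76% of all genes tested) and 3 lower (2.27%, against 3.26%). The shares over all genes cover every level, and genes this low could pass the filter through 1 group. These counts thus support nothing about the class.

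Genes for proteins that act on or with such RNAs were taken from 5 lists. By edgeR 0 of 41 were called, where the share of all genes tested was 8.03%, and 8 (19.5%, against 23.9%) had an unadjusted p under 0.05. DESeq2 called 4 and limma-voom 0. Of 8 dosage compensation genes the smallest p belonged to Clamp, which encodes a zinc-finger protein that recruits the complex to X (log2 fold change -0.27 ± 0.08, adjusted p = 0.087). Of 11 genes of omega speckle proteins it was TBPH, the fly TDP-43 (-0.25 ± 0.09, adjusted p = 0.15). Of 12 genes of the nuclear RNA exosome, which degrades unstable nuclear transcripts, and its cofactors it was Zcchc7 (-0.32 ± 0.14, adjusted p = 0.2). Of 7 genes of small RNA pathways it was Dcr-1, which cuts microRNA precursors (0.35 ± 0.10, adjusted p = 0.07). Of 3 genes of microRNA processing it was pasha, the partner of drosha (0.44 ± 0.12, adjusted p = 0.057). The medians of the 5 lists were 0.03, 0.09, 0.04, 0.14 and 0.44, in the same order, against 0.01 over all genes tested.

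In the authors' deposited table, 11 members had an adjusted p under 0.05 with a positive log2 fold change and 13 with a negative one. All 16 members called by edgeR were among these in the authors' deposited table, with the same sign.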

How the data were processed

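RNA sequencing counts of whole guts from 8 libraries were used, 4 control and 4 LamDm0. The authors deposited read counts per gene in 1 table, taken as raw because they are whole numbers with different totals. They also deposited a comparison with log2 fold changes and p-values, named per the file headers and used only for gene symbols and for counts credited to it. The submitters' processing notes name TopHat2 2.0.13, HTSeq 0.6.0, DESeq2 1.10.1 and the genome BDGP6 without saying what each did. How strand and multi-mapping reads were handled, and which annotation was counted, is not given in the sources used here. 0 columns of per-sample values were left unused.

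Counts were filtered with filterByExpr, scaled by TMM (factors 0.87 to 1.22) and tested with edgeR 4.0.16 in R 4.3.3 (quasi-likelihood F-test, two-sided, no block). Benjamini-Hochberg adjustment ran over 8794 genes, and "adjusted p" means this value unless an alternative or the authors' table is named. Each alternative was adjusted over the genes it tested. The standard error was the log2 fold change divided by the square root of F. All 97 members were tested. Coordinates, classes and exon overlaps come from Ensembl 115 BDGP6.54, matched by identifier, and 2 members without an entry there were named from RefSeq. Alternatives used DESeq2 1.42.0, limma 3.58.1, other filters and scalings, and left-out libraries.

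The members and lists were chosen with earlier results of these data known. Named genes are roX1, roX2, Hsromega and Lam, the 10 largest called changes in each direction, the 6 members of highest CPM, the 3 genes on each side of 2 CPM, coding genes that overlap these, and the smallest p-values of each list. Others are marked. The design text calls the libraries biological repeats without naming crosses or pools, so p-values measure the spread between these samples. In simulated counts for this comparison (8714 genes tested), 6% of changed genes were recovered at a fold of 1.5, 61.2% at 2 and 90.9% at 4, and 5.4% of calls were unchanged genes. The simulated libraries were drawn independently, without the closeness of some replicates seen here, so these rates may not hold for these data.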

Additional observations from a re-analysis of the deposited data

Results flagged for a closer look

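In 6 of the 92 groups of 4 libraries looked at among the named genes, 1 library stood far from the others, and chance flags about 1 group in 20, or 4.6 here. asRNA:CR45604 had 13.8 CPM in LamDm0 replicate 3 against 6.76 to 7.15 CPM in the other LamDm0 libraries. asRNA:CR45140 had 0.789 CPM in control replicate 3 against 0.43 to 0.458 CPM in the other controls. asRNA:CR45714 had 1.19 CPM in LamDm0 replicate 2 against 1.47 to 1.5 CPM. asRNA:CR44998, just under 2 CPM in its mean, had 1.43 CPM in control replicate 2 against 2.12 to 2.25 CPM. CG3987, beside asRNA:CR45600, had 527 CPM in control replicate 4 against 317 to 349 CPM in the other controls. Dcr-1 had 15.8 CPM in control replicate 3 against 17.6 to 17.9 CPM.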

How the results depend on the processing

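In all alternatives where they were tested, the 16 called members kept their direction. The count of higher members, 7 as reported, was 11 with DESeq2, 12 with library totals in place of TMM factors, 13 with members from 1 CPM and 4 with members from 5 CPM. The count of lower members, 9 as reported, was 4 with members from 5 CPM and 4 without LamDm0 replicates 3 and 4. With a filter at a mean of 10 CPM, which tests 22 of the 97 members, 2 were higher and 4 lower. With libraries 1 and 2 and 3 and 4 of each group summed, an alternative chosen after seeing the data, 4 were higher and 2 lower, and lncRNA:CR40469, asRNA:CR45822, asRNA:CR45600, lncRNA:CR44138, lncRNA:CR43493 and lncRNA:CR44310 remained. Leaving out 1 library gave 7 to 8 higher and 6 to 9 lower members, and kept 13 to 15 of the 16 calls. Limited to the annotated noncoding genes, also chosen after seeing the data, 7 were higher and 8 lower. Calls in the 5 lists, 0 as reported, were 4 with DESeq2, 1 with a filter at 10 CPM and 1 without LamDm0 replicates 1 and 2; the cause was not tested. Replicate numbers did not pair the samples (correlations of same-numbered deviations -0.18, -0.11, -0.38 and -0.02), and with the replicate number as a block 5 members were higher and 7 lower, against 332 calls over all genes. Within a group no 2 libraries agreed within sampling noise, the closest being control replicates 1 and 2 (chi-square per degree of freedom 28.4). Low counts limit members near 2 CPM.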
